A study of Mus musculus with 6 samples.

Results

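Apoe, Fabp7, Gpm6b, Ttyh1, Slc1a3, Ednrb, Sparc and Notch1 were followed through single-cell RNA profiles of mouse dorsal root ganglia, the clusters of sensory neuron cell bodies beside the spinal cord. These 8 of the 27998 genes in the count table are transcripts known from satellite glia, the cells that wrap each sensory neuron. They were listed because Apoe and Fabp7 differed between the diets in non-peptidergic neurons. The comparison of the 2 diets therefore describes how the list was made and supports nothing. The comparisons with wild type mice share the deficient or the supplemented mice with that choice and are not independent of it, so the folds of Apoe and Fabp7 in NP1 (non-peptidergic) neurons are given with no p. Values are given per mouse and per class of cell, with neurons beside the cells richest in glial markers.

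The groups were Ttpa-/- mice on a diet deficient in vitamin E (mice 654, female, and 657, male, aged 6 months), Ttpa-/- mice on a diet supplemented with vitamin E (670, male, and 671, female, aged 6 months) and Ttpa+/+ mice on a basal diet (698, female, and 699, male, aged 5 months). The product of Ttpa, a tocopherol transfer protein, lets the liver return vitamin E to the blood. Each library came from 1 mouse and holds cells labelled as dorsal root ganglia neurons, made with a 10x Genomics droplet kit that counts 3' ends of transcripts by unique molecular identifiers (UMIs). Both diets of the Ttpa-/- mice differ from the wild type group in genotype, food and age at once, so these cannot be told apart.

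Apoe is the lipid carrier that glia secrete to hand cholesterol and other lipids to neurons. Fabp7, the brain-type fatty acid binding protein, carries long-chain fatty acids inside glia and is a widely used satellite glia marker in ganglia. Gpm6b is a tetraspan membrane glycoprotein of glia and neurons. Ttyh1 is a membrane protein of glia and neural progenitors from a family of chloride channels. Slc1a3 (GLAST) takes up glutamate. Ednrb is the endothelin receptor of glia and neural crest cells, Sparc a secreted matrix-binding glycoprotein and Notch1 a receptor through which neighbouring cells keep progenitors undifferentiated. In an intact ganglion these genes are known from the glial sheath, but not all are confined to it. Gpm6b is also made by neurons, Apoe by macrophages and Sparc by endothelial cells.

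On mouse build GRCm38 (GENCODE annotation), Apoe lies on the minus strand of chromosome 7 from 19696109 to 19699188, and Fabp7 on the plus strand of chromosome 10 from 57784881 to 57788450. Gpm6b is on chromosome X from 166238911 to 166388988, Ttyh1 on chromosome 7 from 4119408 to 4136708 and Slc1a3 on chromosome 15 from 8634124 to 8710764. Ednrb is on chromosome 14 from 103814625 to 103844402, Sparc on chromosome 11 from 55394500 to 55423183 and Notch1 on chromosome 2 from 26457903 to 26516663. Apoe and Fabp7 moved together across mice and classes, so their promoters are shown from 250 bases before to 50 bases after the start (RefSeq, GRCm38.p6), at chr7:19699139-19699438 on the minus strand and chr10:57784673-57784972 on the plus strand. Capitals mark matches, on either strand, to 3 motifs that were searched: ACAAAG (bound by SOX factors), TGGGAA (bound by RBPJ, the DNA-binding partner of Notch) and TATAAA (the TATA box). Each window shown holds 1 match, so no matches overlap.
Apoe: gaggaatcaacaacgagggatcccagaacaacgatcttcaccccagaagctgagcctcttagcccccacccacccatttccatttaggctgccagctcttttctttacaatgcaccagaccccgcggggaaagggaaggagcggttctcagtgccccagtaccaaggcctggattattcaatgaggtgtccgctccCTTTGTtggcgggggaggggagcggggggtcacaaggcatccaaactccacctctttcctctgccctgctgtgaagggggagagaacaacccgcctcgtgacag
Fabp7: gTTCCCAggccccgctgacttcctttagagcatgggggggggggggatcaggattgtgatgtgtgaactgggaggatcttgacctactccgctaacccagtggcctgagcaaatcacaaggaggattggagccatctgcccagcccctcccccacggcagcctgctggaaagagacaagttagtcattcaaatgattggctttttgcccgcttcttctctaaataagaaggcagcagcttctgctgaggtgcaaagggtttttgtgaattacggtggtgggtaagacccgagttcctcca
The Apoe window held 1 match to ACAAAG, written on the opposite strand, and the Fabp7 window held 1 match to TGGGAA, also on the opposite strand. Over 32851 mouse promoter windows of the same length, 18.7% held ACAAAG, 25.6% held TGGGAA and 13.6% held TATAAA. The 2 windows shared no matched motif, and a match is a run of letters, not a measured binding site. RefSeq gives Apoe 2 further starts, whose windows held 2 matches to TATAAA and 1 match to TGGGAA.

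The table held 21685 cells and 98219078 UMIs, between 12538785 and 19383933 per library, with a median of 2499.5 to 4959 UMIs per cell. A minimum of 500 genes, a maximum of 20% mitochondrial UMIs and the removal of 634 called doublets left 21024 cells. Of these, 20847 carried at least 5 of 13 pan-neuronal markers and fewer than 3 markers of endothelial, mural, fibroblast or macrophage cells, as the labelled cell type requires. Neuron classes were gated by fixed markers: NP1 (Mrgprd type, 2672 cells), NP2 (Mrgpra3 type, 403), NP3 (Sst and Nppb type, 1727), PEP (peptidergic, 6242), NF (neurofilament-rich, large myelinated, 3370) and TH (tyrosine hydroxylase touch neurons, 3667). Of these classed neurons, 14.4% also reached the marker minimum of another class. Between 5.83% and 21.6% of a library's cells fitted no class, most in mice 670 and 654, the shallowest libraries. Ttpa itself had 4 and 5 UMIs in deficient, 1 and 4 in supplemented and 0 in each wild type library, too few to check a genotype, and no source here names the deleted part of the gene. Of the cell barcodes, 261 occurred in more than 1 library, in 522 cells.

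No class of free glial cells could be gated. Only 319 cells carried at least 3 of the 10 satellite glia markers (among them Sox10, Erbb3, Cdh19, Kcnj10, S100b, Gja1, Cnp, Foxd3 and Matn2), and 315 of them also passed the neuron gate, with a median of 10 to 11 of the 13 pan-neuronal markers in each library. Only 4 held more UMIs of glial than of neuronal markers. They are called glial-marker-rich cells here and not satellite glia, since no separate population of satellite glia was found in which to check the list's label. S100b and Cnp carried much of this gate: S100b had a UMI in 27.5% of all kept cells and Cnp in 12.5%, against 0.899% for Sox10 and 0.452% for Erbb3.

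The members were highest where glial markers were most numerous. Pooled over the mice, Apoe had 173 counts per 1000000 UMIs (CPM) in neurons with no glial marker, 255 with 1, 662 with 2 and 1529 with 3 or more. Fabp7 stood at 68.9, 97.7, 267 and 677 CPM over the same steps, and Gpm6b at 21.7, 34.6, 75.8 and 182 CPM. Ednrb, the endothelin receptor, reached 68.5 CPM at 3 or more markers, against 6.37 CPM at none, and Sparc 83.5 against 9.49 CPM. Ttyh1 had 13.6 against 1.97 CPM, Slc1a3 5.71 against 1.38 CPM and Notch1 5.71 against 1.33 CPM, the last 3 each on few UMIs. For Apoe, Fabp7 and Gpm6b each of the 6 mice had its highest value at 3 or more markers. The glial markers and the members were read in the same cells, so these levels are a description.

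**Figure D1:**
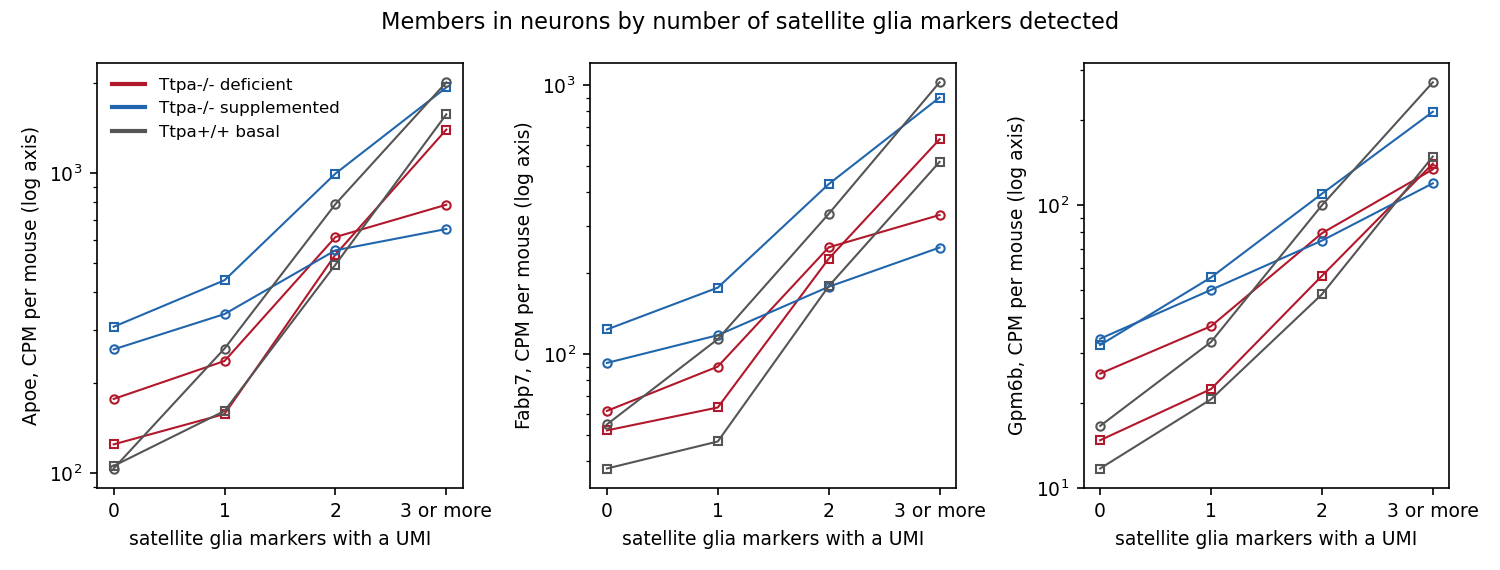
CPM of Apoe, Fabp7 and Gpm6b (log axes) in neurons grouped by the number of satellite glia markers with a UMI, 1 line per mouse; circles are mice 654, 670 and 698, squares mice 657, 671 and 699. Every line ends at its highest point, and at 0 markers both supplemented mice lie above the other 4.

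Most member UMIs were outside the glial-marker-rich cells, because those were only 1.51% of neurons. They held 8.18% of the 26195 Apoe UMIs in neurons, 9.14% of the Fabp7 UMIs and 7.7% of the Gpm6b UMIs. Neurons with no glial marker at all made up 52.4% of neurons and held 27.8% of Apoe and 27.9% of Fabp7 UMIs. Over the 8 members the share held by such neurons ran from 22.8% for Slc1a3 to 33.7% for Notch1.

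Apoe UMIs were concentrated in few neurons. No Apoe UMI was found in 72% of neurons (15006 of 20847), while 782 neurons with at least 10 Apoe UMIs, 3.75% of all, held 49.1% of Apoe UMIs. The highest count in 1 neuron was 58. The top 5% of neurons held 57.5% of Apoe, 57.2% of Fabp7 and 58.4% of Gpm6b UMIs. Neurons rich in Apoe were rich in the other members: Fabp7 averaged 4.56 UMIs per neuron where Apoe had at least 10 UMIs, against 0.0772 where Apoe had none. Gpm6b averaged 1.04 against 0.049 UMIs, Ednrb 0.339 against 0.00953 and Sparc 0.469 against 0.0231 UMIs. The Schwann cell myelin gene Mbp differed less, with 0.228 against 0.2 UMIs. The Apoe-rich neurons had a median of 10 pan-neuronal markers against 11, and a median depth of 2877 against 3797 UMIs.

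For every 100 Apoe UMIs, glial-marker-rich cells had 44.3 Fabp7 UMIs and all neurons 39.7. The neuron classes had 29.7 in NP2, 33.3 in NP3, 36.7 in NP1, 38.4 in PEP, 38.7 in TH and 49.3 in NF. Gpm6b had 12.3 UMIs per 100 Apoe UMIs in glial-marker-rich cells and 12.6 in all neurons, with classes between 8.57 in NP2 and 19.2 in NF. Mice differed as well: over all neurons, Fabp7 per 100 Apoe UMIs was 37.5 and 41.8 in deficient, 34.9 and 41.5 in supplemented and 46.3 and 33.1 in wild type mice. In glial-marker-rich cells the same ratio was 41.6 and 45.1, 38.2 and 46.7, and 51.1 and 33.1 in these groups. Wild type mouse 698 thus had the highest and wild type mouse 699 the lowest ratio in both.

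As a background, 58 cells with endothelial markers were read, a cell type that is not known as a main source of Apoe or Fabp7. They held a median of 40 UMIs of pan-neuronal markers, against 44 in neurons with no glial marker. They are thus not a background free of neuronal RNA. Apoe had a UMI in 19% of them (11 cells, exact 95% interval 9.87% to 31.4%, median 3278.5 UMIs), against 28% of neurons (median 3563 UMIs). Fabp7 had a UMI in 8.62% (interval 2.86% to 19%) against 18.7% of neurons, and Gpm6b in 1.72% (interval 0.0436% to 9.24%) against 11.6%. The Apoe and Fabp7 shares in neurons lie within the wide intervals of the endothelial cells, and the Gpm6b share lies above its interval. Levels differed more than shares. Apoe stood at 96.2 CPM in the endothelial cells, on 23 UMIs of which 14 were in mouse 671. Over all neurons it averaged 282 CPM (mean of 6 mice). Fabp7 stood at 50.2 CPM on 12 UMIs, against 111 CPM in neurons. Sparc, which endothelial cells do make, had a UMI in 29.3% of them. In 36 cells with macrophage markers Apoe stood at 2002 CPM and Fabp7 at 147 CPM, as macrophages also make Apoe. How much of the members' UMIs in neurons came from free RNA or from glia attached to a neuron was not tested.

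Apoe UMIs went with shallow cells in each library. In the quintile of neurons with the fewest UMIs, Apoe stood at 862 and 790 CPM in deficient, 1163 and 1545 CPM in supplemented and 808 and 756 CPM in wild type mice. In the deepest quintile the same mice had 66.8 and 40.7, 105 and 103, and 54.6 and 40.6 CPM. Counts per neuron, which do not divide by depth, were also lower in the deepest quintile: 0.442 and 0.536 UMIs in deficient, 0.665 and 0.949 in supplemented and 0.572 and 0.471 in wild type mice. The shallowest quintile had 1.15 and 1.9, 1.35 and 2.72, and 1.52 and 1.7 UMIs per neuron in the same groups.

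**Figure D2:**
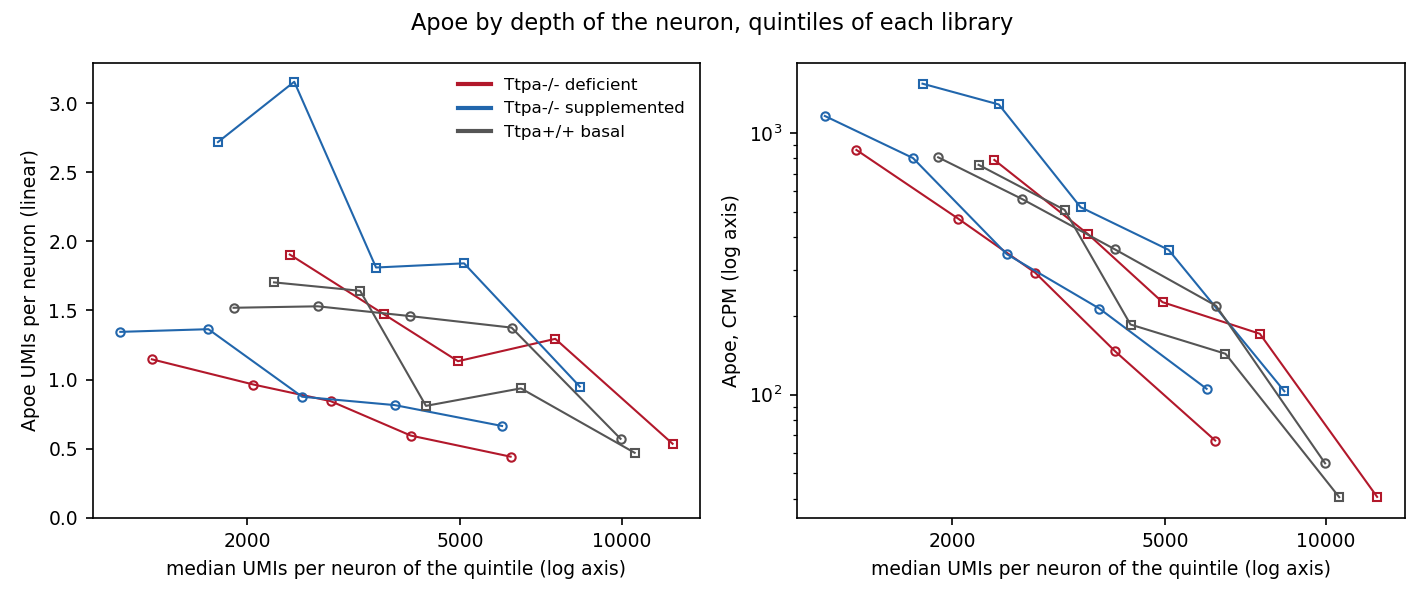
Apoe UMIs per neuron (left, linear axis) and Apoe CPM (right, log axis) in quintiles of each library's neurons by depth, against the median UMIs per neuron (log axis), 1 line per mouse; circles are mice 654, 670 and 698, squares mice 657, 671 and 699. All 6 lines end lower than they start, and supplemented mouse 671 has the highest start in both panels.

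Across neuron classes Apoe and Fabp7 had the same order. Apoe averaged 529 ± 208 CPM in PEP, 349 ± 84.7 in NP3, 251 ± 101 in TH, 211 ± 64.5 in NP2, 135 ± 61.5 in NF and 123 ± 51.1 CPM in NP1 neurons (SD, n = 6 mice). PEP was above NP3 and NP3 above TH in 6 of 6 mice, NP2 above NF in 6 of 6, while TH against NP2 and NF against NP1 held in only 4 of 6. Fabp7 kept this order, with 199 ± 84.8 CPM in PEP, 115 ± 32.6 in NP3, 96.2 ± 47.3 in TH, 69.4 ± 43 in NP2, 64.7 ± 36.8 in NF and 44.7 ± 19.6 CPM in NP1. NP1 was thus the lowest class for both genes. Fabp7 neighbours in this order kept their places in 6 of 6 mice for PEP against NP3 and TH against NP2, in 5 of 6 for NP3 against TH and NF against NP1, and in 4 of 6 for NP2 against NF.

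On the CPM scale the other members were also highest on average in PEP. Gpm6b averaged 60.3 ± 22.4 CPM there and 16.3 ± 6.33 CPM in NP1, the lowest class. Sparc averaged 27.5 ± 14.3 CPM in PEP against 25.3 ± 13.1 in NP3, with PEP higher in 5 of 6 mice, and Ednrb 20.6 ± 5.61 against 13 ± 4.91 CPM, higher in 6 of 6. Ttyh1 (5.94 ± 2.31 CPM), Slc1a3 (4.64 ± 2.57 CPM) and Notch1 (2.9 ± 2.09 CPM) were near the detection limit even in PEP. For Notch1, PEP was above NP3 in only 3 of 6 mice. Slc1a3, the glutamate transporter, differed in its order: NF neurons came next at 4.1 ± 2.06 CPM, and PEP was above NF in only 3 of 6 mice.

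Depth moved with this order. PEP neurons had a pooled median of 2371.5 UMIs per cell and NP3 3446, against 6848.5 in NP1 and 7041 in NP2. On counts per cell, which differ less, Apoe stood at 1.68 UMIs in NP2, 1.57 in PEP, 1.23 in NP3, 1.07 in TH, 0.902 in NP1 and 0.834 in NF neurons. Fabp7 stood at 0.602 in PEP, 0.499 in NP2, 0.413 in TH, 0.411 in NF, 0.41 in NP3 and 0.331 UMIs in NP1. NP2 and PEP lead on this scale for both genes. Gpm6b and Ednrb were highest in PEP on counts per cell as well. Slc1a3 was highest in NF (0.0252 UMIs against 0.0136 in PEP) and Sparc in NP3 (0.0886 against 0.0756). Ttyh1 and Notch1 were highest in NP2, on only 9 and 4 UMIs. The part of depth in the order on the CPM scale was not tested.

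**Figure D3:**
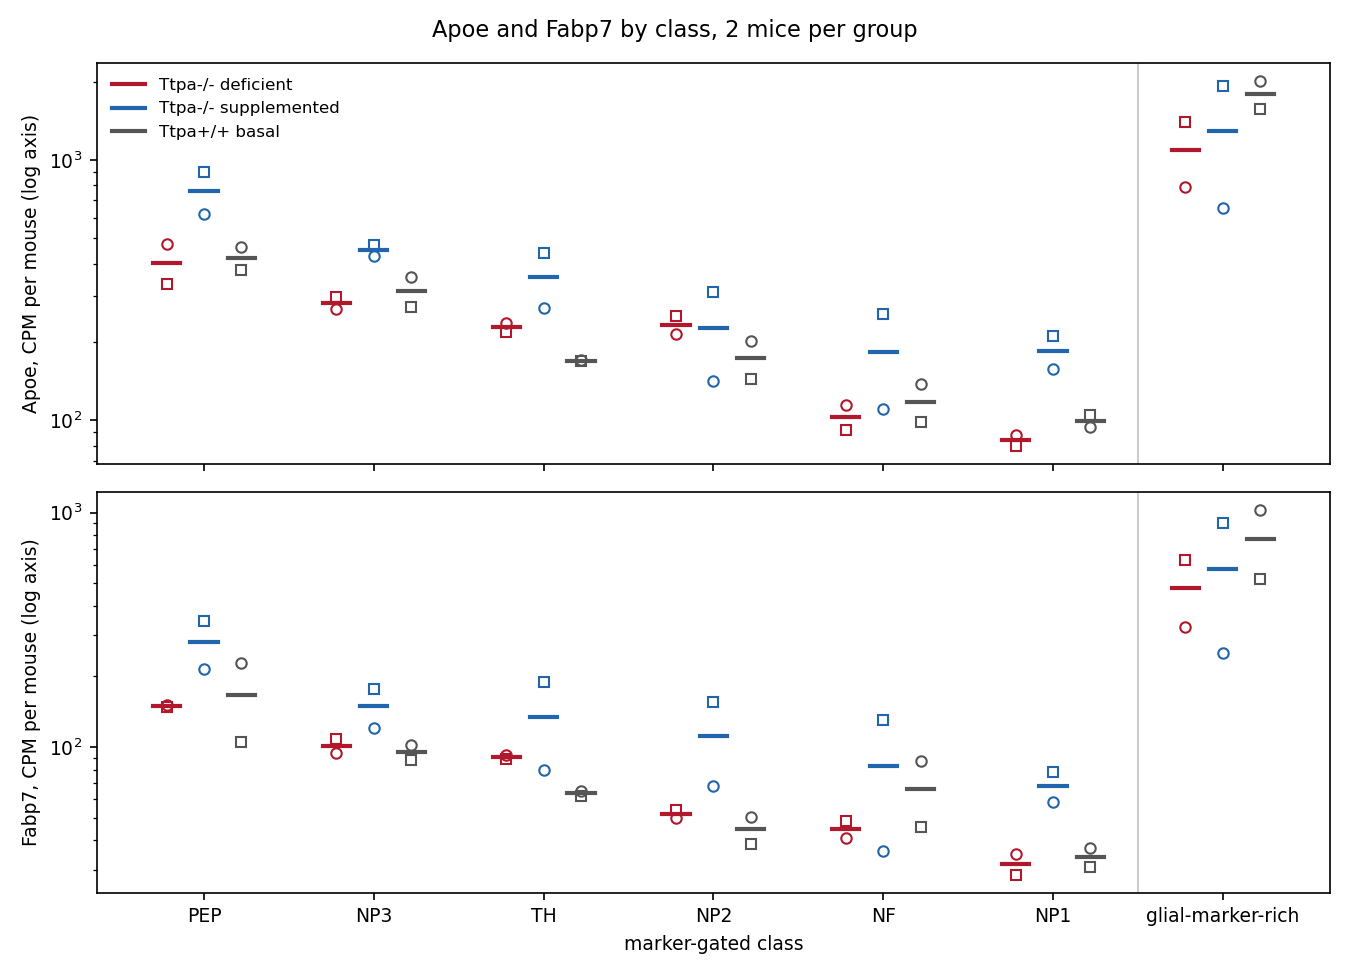
Apoe (top) and Fabp7 (bottom) in CPM per mouse (log axes) in 6 neuron classes and in glial-marker-rich cells; circles are mice 654, 670 and 698, squares mice 657, 671 and 699, and bars are group means of 2 mice. PEP is highest among the neuron classes and NP1 lowest on average, and in each mouse the glial-marker-rich cells lie above its own PEP neurons.

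In NP1 neurons, where the list was chosen, Apoe and Fabp7 were higher in supplemented mice than in both other groups. Apoe had 88.1 and 79.8 CPM in deficient, 158 and 210 CPM in supplemented and 94.5 and 105 CPM in wild type mice, from 269 to 714 UMIs per mouse. Both supplemented mice lay above the other 4, and both deficient mice lay below both wild type mice. Deficient mice stood at 2.22-fold lower Apoe than supplemented mice (log2 fold -1.15 ± 0.15 SE, edgeR quasi-likelihood fit to UMI sums of all 6 mice). This contrast chose the gene, so no p is given.

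For supplemented against wild type mice the Apoe fold was 1.84 (log2 fold 0.88 ± 0.15). This comparison uses the same supplemented NP1 values as the choice of the gene, so it has no independent test. The log2 fold was 0.62 without supplemented mouse 671, 0.79 without wild type mouse 698 and 0.97 without wild type mouse 699. For deficient against wild type mice the log2 fold was -0.27 ± 0.15, and it changed sign when neurons with any glial marker were removed (0.25).

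Fabp7 followed the same pattern in NP1 neurons. It had 34.9 and 28.6 CPM in deficient, 58.5 and 78.3 CPM in supplemented and 37.3 and 30.7 CPM in wild type mice. The supplemented mice again lay above the other 4, while deficient and wild type mice overlapped. Its log2 fold was -1.13 ± 0.17 for deficient against supplemented mice. For supplemented against wild type mice the fold was 1.99 (log2 fold 0.99 ± 0.18), again on the values that chose the gene. The log2 fold was 0.73 without mouse 671, 1.13 without mouse 698 and 0.88 without mouse 699. For deficient against wild type mice it was -0.14 ± 0.19, and it too turned positive without glial-marker neurons (0.64).

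**Figure D4:**
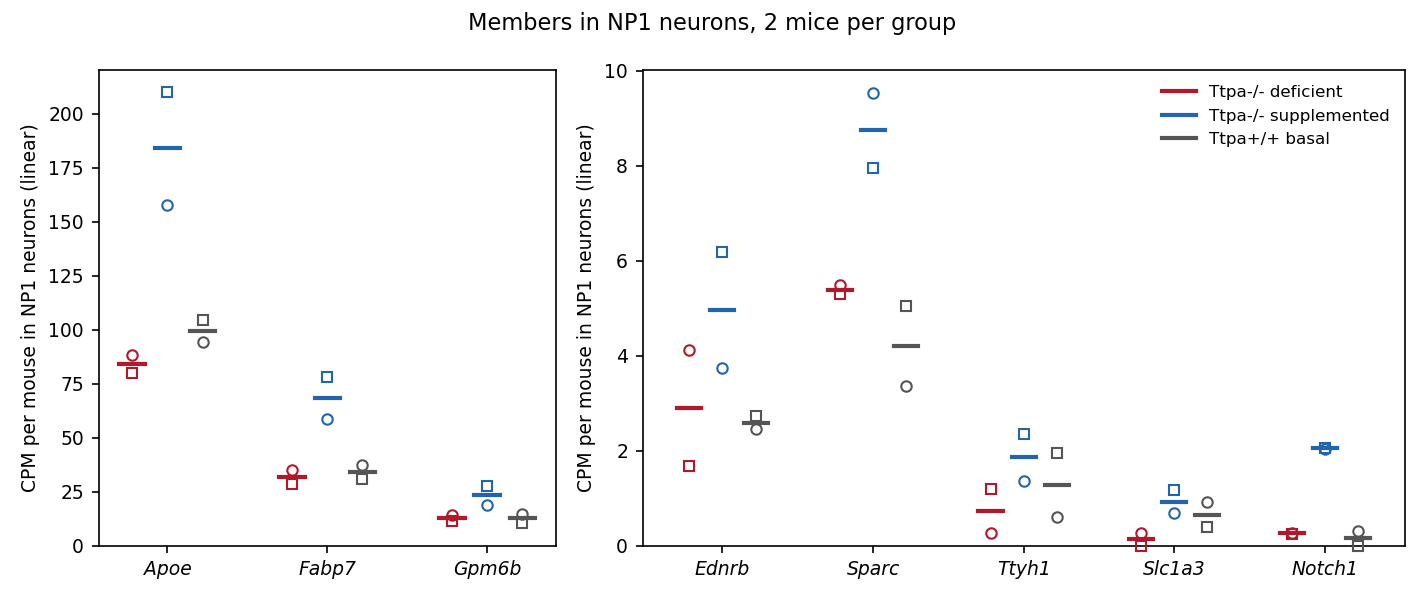
CPM of the 8 members per mouse in NP1 neurons (linear axes from 0); circles are mice 654, 670 and 698, squares mice 657, 671 and 699, and bars are group means of 2 mice. For Apoe and Fabp7 the 2 supplemented mice lie above the other 4, and the right panel holds members under 10 CPM, some of them at a few UMIs.

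The remaining members were less certain in NP1 neurons. Gpm6b had 14.3 and 11.5 CPM in deficient, 19.1 and 27.7 CPM in supplemented and 14.7 and 10.5 CPM in wild type mice, with the supplemented mice above the other 4. Its log2 fold was -0.89 ± 0.24 for deficient against supplemented mice and 0.87 ± 0.25 for supplemented against wild type mice, where the adjusted p was 0.371 by edgeR's quasi-likelihood test with Benjamini-Hochberg adjustment over 9927 genes. Sparc had 5.49 and 5.29, 9.53 and 7.95, and 3.36 and 5.05 CPM in these groups, on 11 to 28 UMIs per mouse. It gave log2 folds of -0.70 ± 0.31 (deficient against supplemented) and 1.05 ± 0.35 (supplemented against wild type, edgeR adjusted p = 0.523). Ednrb had 4.12 and 1.68, 3.74 and 6.18, and 2.45 and 2.72 CPM, on 7 to 21 UMIs, and the deficient and supplemented mice overlapped. Its log2 folds were -0.83 ± 0.46 and 0.94 ± 0.50 for the same contrasts, with an edgeR adjusted p of 0.8 for the second.

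Ttyh1, Slc1a3 and Notch1 did not pass the low-count filter in NP1 neurons. Notch1 had 1 and 1 UMIs in deficient, 6 and 7 in supplemented and 1 and 0 in wild type mice. Ttyh1 had 1 and 5, 4 and 8, and 2 and 5 UMIs, and Slc1a3 1 and 0, 2 and 4, and 3 and 1 UMIs. The Notch1 counts were higher in both supplemented mice, but no fold was fitted to so few UMIs.

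Of the 8 members, 5 were tested in NP1 neurons. Between the diets 2 of them (Apoe and Fabp7) were called, which were also the only 2 genes called among 9927 genes (0.0201%), from which nothing is read since the contrast chose them. In supplemented against wild type mice the same 2 were called, where 0.212% of all genes were (21 genes, 20 of them higher), and nothing is read from this either, since the supplemented values are those of the choice. In deficient against wild type mice edgeR, DESeq2 and limma-voom each called 0 of 5, none had an unadjusted p under 0.05 in edgeR (437 of all 9927 genes did), and 0.0302% of all genes were called. The median log2 fold of the 5 was -0.89, -0.02 and 0.94 in the contrasts deficient against supplemented, deficient against wild type and supplemented against wild type, while that of all tested genes was 0.00 in each. The 4 tested members other than Ednrb lay lower in both deficient than in both supplemented mice (15% of all genes did), and 5 of 5 lay higher in both supplemented than in both wild type mice (19.9% of all genes did).

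The shares of NP1 neurons with an Apoe UMI were 22.8% and 25.1% in deficient, 31.7% and 32.9% in supplemented and 21.1% and 21.3% in wild type mice. Exact 95% intervals, which cover counting error only, ran for example from 27.8% to 35.8% in mouse 670 and from 16.6% to 26.5% in mouse 699. The endothelial share above, 19%, was read at a lower depth and in cells that also held pan-neuronal marker UMIs. The deficient and wild type shares lie within its interval of 9.87% to 31.4%, and the supplemented shares lie just above the upper bound. With each cell thinned to 1500 UMIs the shares were 11.6% and 10.1%, 16.5% and 19.2%, and 8.38% and 10.6%. The thinning left out 7 deficient and 10 supplemented NP1 neurons that were shallower. Fabp7 was found in 10.6% and 12.4% of NP1 neurons in deficient, 18.6% and 22.6% in supplemented and 13.8% and 11.3% in wild type mice. Thinned, these were 5.25% and 3.8%, 7.69% and 11.4%, and 6.49% and 5.67%.

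Depth differed between the mice within NP1, with medians of 5617 and 10592 UMIs per cell in deficient, 5342 and 7579 in supplemented and 9022 and 9107 in wild type mice. Among NP1 neurons with 5000 to 10000 UMIs, Apoe stood at 72.7 and 186 CPM in deficient, 115 and 227 CPM in supplemented and 112 and 139 CPM in wild type mice, and the groups overlapped. Below 5000 UMIs it stood at 152 and 359, 274 and 696, and 428 and 786 CPM in these groups, with the highest value in wild type mouse 699 (32 cells). Above 10000 UMIs the values were 16 and 26, 12.5 and 44.8, and 41.9 and 21.5 CPM, with only 7 cells in supplemented mouse 670. The separation of supplemented mice seen over all NP1 neurons was thus not found inside any of these 3 depth ranges, and the part of depth in it was not tested.

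The summed satellite glia markers were highest in supplemented mice in NP1 neurons, but not in PEP or over all neurons. All 10 satellite glia markers were detected in NP1 neurons, with summed levels of 89 and 93.5 CPM in deficient, 121 and 106 CPM in supplemented and 81.3 and 83.6 CPM in wild type mice, so that the supplemented mice were highest. Within the list, S100b (24.5 and 40 against 23.8 and 31.1 CPM) and Cnp (44.2 and 25 against 31.5 and 35.4 CPM) overlapped between supplemented and wild type mice. In PEP the sums were 408 and 428, 518 and 470, and 310 and 477 CPM in the 3 groups. Over all neurons they were 419 and 464, 588 and 651, and 387 and 829 CPM, highest in wild type mouse 699. The 9 Schwann markers summed to 696 and 655, 665 and 576, and 581 and 611 CPM in the 3 groups, most of it Pmp22. All 9 macrophage markers were detected, with sums of 5.77 and 0.961, 6.81 and 3.24, and 1.53 and 1.55 CPM. Erythroid markers summed to 235 and 39.4, 97.3 and 13.2, and 3.36 and 13.2 CPM. The part of these genes in the result was not tested.

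Without any NP1 neuron carrying 1 of the 10 glial markers, the log2 fold for supplemented against wild type mice was 1.29 ± 0.19 for Apoe and 1.33 ± 0.26 for Fabp7. This leaves in neurons with free RNA or attached glia in which no marker had a UMI. Neurons with no glial marker had 70.3 and 54.2 Apoe CPM in deficient, 119 and 134 CPM in supplemented and 43.5 and 61.8 CPM in wild type mice. For deficient against supplemented mice the log2 folds over 11 alternatives that left no mouse of either group out lay between -1.15 and -1.04 for Apoe and between -1.15 and -0.69 for Fabp7.

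**Figure D5:**
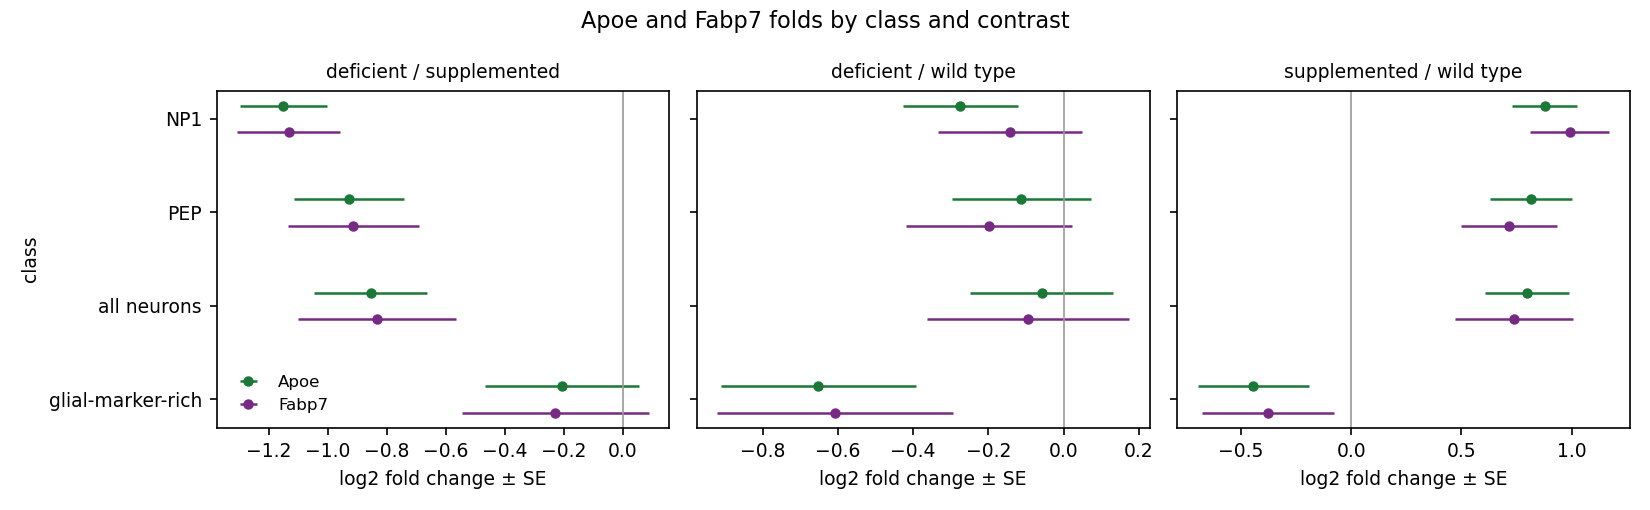
Log2 folds ± SE of Apoe and Fabp7 from the edgeR fits, in 4 sets of cells (rows) and the 3 contrasts (panels); values left of 0 are lower in the group named first. The Apoe and Fabp7 bars overlap in every row, and in glial-marker-rich cells the supplemented against wild type folds lie left of 0 while those of the neuron sets lie right of it.

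In PEP neurons, the class with the most member UMIs, the pattern was similar. Apoe had 474 and 333 CPM in deficient, 621 and 903 CPM in supplemented and 463 and 379 CPM in wild type mice, with both supplemented mice above the other 4. Its log2 fold was -0.93 ± 0.19 for deficient against supplemented mice and 0.82 ± 0.19 for supplemented against wild type mice, where it missed the threshold (edgeR adjusted p = 0.0565). Fabp7 had 151 and 148, 216 and 344, and 229 and 105 CPM, so that wild type mouse 698 lay above supplemented mouse 670. Its log2 folds were -0.91 ± 0.22 and 0.72 ± 0.22 for the same contrasts (edgeR adjusted p = 0.439 for the second).

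Gpm6b was the member called in PEP neurons. It had 54.1 and 38.2 CPM in deficient, 90.2 and 84.8 CPM in supplemented and 56.4 and 38.4 CPM in wild type mice, and it rose 1.78-fold in supplemented against wild type mice (log2 fold 0.83 ± 0.18, edgeR adjusted p = 0.0351). Both supplemented mice lay above the other 4. The call was lost without wild type mouse 699 (edgeR adjusted p = 0.559), with DESeq2 (0.353), with doublets kept (0.0779), under a stricter cell filter (0.375) and with clusters in place of gates (0.0637). Its log2 fold for deficient against supplemented mice was -0.94 ± 0.18.

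The rarer members passed the filter in PEP neurons. Slc1a3 had 8 and 9 UMIs in deficient, 13 and 28 in supplemented and 20 and 7 in wild type mice, and Notch1 5 and 4, 7 and 22, and 9 and 6 UMIs. Their log2 folds in supplemented against wild type mice were 1.10 ± 0.43 and 1.42 ± 0.52 (edgeR adjusted p = 0.893 and 0.755). Sparc stood at 32.7 and 11 CPM in deficient, 51.0 and 32.1 CPM in supplemented and 20 and 18.1 CPM in wild type mice (log2 fold 1.04 ± 0.27 for supplemented against wild type, edgeR adjusted p = 0.154). Ednrb at 25.9 and 14.3, 25.8 and 23.1, and 21.5 and 13.1 CPM had the smallest fold, with a log2 fold of 0.44 ± 0.25 (edgeR adjusted p = 0.992). Ttyh1 stood at 6.82 and 4.57, 7.16 and 8.73, and 6.24 and 2.1 CPM (log2 fold 0.89 ± 0.41, edgeR adjusted p = 0.992).

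All 8 members were tested in PEP neurons. In supplemented against wild type mice 1 was called, where 0.218% of 10990 genes were, and 7 of 8 did not overlap between the groups, being higher in supplemented mice as 21.4% of all genes were. Between the diets edgeR called 0 of 8 (0.0182% of all genes), DESeq2 0 and limma-voom 2, and 6 had an unadjusted p under 0.05, as 403 of all 10990 genes did. In that contrast 6 of 8 lay lower in both deficient mice, as 15.5% of all genes did. It is the contrast that chose the list, and nothing is read from these counts. In deficient against wild type mice 0 of 8 were called by edgeR, DESeq2 and limma-voom, 0 had an unadjusted p under 0.05 (324 of all genes did), and 0.0546% of all genes were called. Beside these values, hemoglobin RNA, a sign of red blood cells, was high in PEP neurons of both Ttpa-/- groups: the erythroid markers summed to 105 and 105 CPM in deficient, 185 and 138 CPM in supplemented and 7.24 and 7.1 CPM in wild type mice. The part of these markers in the result was not tested.

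At matched depth the PEP groups overlapped in 2 of 3 depth ranges. Among PEP neurons with 2000 to 4000 UMIs, Apoe stood at 412 and 580 CPM in deficient, 301 and 978 CPM in supplemented and 509 and 590 CPM in wild type mice. Supplemented mouse 670, with a PEP median of 1581 UMIs per cell, was the lowest there, and supplemented mouse 671 the highest. Below 2000 UMIs the values were 739 and 314, 1139 and 1756, and 824 and 526 CPM, with only 8 cells in deficient mouse 657, and both supplemented mice lay above the other 4. Above 4000 UMIs they were 141 and 153, 131 and 320, and 283 and 138 CPM, where the supplemented mice were the lowest and the highest.

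Over all neurons the supplemented mice were again highest for most members. Apoe had 236 and 200 CPM in deficient, 326 and 475 CPM in supplemented and 254 and 199 CPM in wild type mice (log2 fold -0.85 ± 0.19 for deficient against supplemented mice and 0.80 ± 0.19 for supplemented against wild type mice). Fabp7 had 88.3 and 83.4, 114 and 197, and 118 and 65.8 CPM (log2 folds -0.83 ± 0.27 and 0.74 ± 0.27). Gpm6b had 34.7 and 24.3, 45.9 and 54.7, and 34.1 and 22.3 CPM (log2 folds -0.75 ± 0.21 and 0.81 ± 0.21). All 8 members lay lower in both deficient than in both supplemented mice, where 20.8% of all 13363 genes did. In supplemented against wild type mice 7 of 8 lay higher without overlap, all but Fabp7, where 18.5% of all genes did. Notch1, with 19 and 15 UMIs in deficient, 40 and 52 in supplemented and 23 and 17 in wild type mice, had a log2 fold of 1.49 ± 0.33 for supplemented against wild type mice (edgeR adjusted p = 0.553). Ttyh1 had 33 and 43, 59 and 87, and 47 and 38 UMIs and a log2 fold of 1.07 ± 0.25 (edgeR adjusted p = 0.553).

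No member was called over all neurons by edgeR in any of the 3 contrasts, and neither was any other gene (0% each). The unadjusted p was under 0.05 for 8 members between the diets, 1 in deficient against wild type mice and 7 in supplemented against wild type mice, where 337, 521 and 531 of all 13363 genes were. From the count between the diets nothing is read. DESeq2 called 1 member in the last contrast, and limma-voom called 0 in each. That 1 member in deficient against wild type mice was Slc1a3, the glutamate transporter (log2 fold -0.93 ± 0.29, edgeR adjusted p = 0.989). The log2 folds for deficient against wild type mice were -0.06 ± 0.19 for Apoe and -0.09 ± 0.27 for Fabp7.

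In NP2, NP3, NF and TH neurons no member was called by edgeR, DESeq2 or limma-voom in any contrast. The share of all genes that edgeR called there was 0% between the diets in each class. It was 0.0331% in NP2, 0.0384% in NP3, 0.00917% in NF and 0% in TH for deficient against wild type mice, and 0.0128% in NP3 and 0% in the other 3 for supplemented against wild type mice. Unadjusted p under 0.05 was reached between the diets by 1 of 3 tested members in NP2, 5 of 5 in NP3, 6 of 7 in NF and 4 of 5 in TH, from which nothing is read since this contrast chose the list. Over all genes it was reached there by 198 of 6047 in NP2, 217 of 7815 in NP3, 438 of 10908 in NF and 237 of 9858 in TH. For supplemented against wild type mice the counts were 2, 4, 2 and 5 members, beside 192, 270, 478 and 300 of all genes. For deficient against wild type mice they were 0, 0, 1 and 1 members, beside 160, 216, 296 and 178 of all genes.

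Apoe in NP3 neurons had 268 and 298 CPM in deficient, 427 and 472 CPM in supplemented and 354 and 274 CPM in wild type mice, with the supplemented mice on top. In TH neurons it had 236 and 219, 270 and 440, and 170 and 168 CPM, so that the deficient mice lay between the other groups. NF neurons showed a wider spread, at 114 and 92.1, 111 and 256, and 138 and 98.7 CPM, where supplemented mouse 670 fell among the others. NP2 neurons, with 35 to 84 cells per mouse, gave 215 and 252, 142 and 310, and 201 and 145 CPM, and supplemented mouse 670 had the lowest value of all 6. Fabp7 in NP2 neurons had 50 and 54.2, 67.9 and 155, and 50.4 and 38.8 CPM, with both supplemented mice highest on 12 to 66 UMIs per mouse.

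The glial-marker-rich cells did not show the order of the neurons. Apoe had 785 and 1396 CPM in deficient, 657 and 1929 CPM in supplemented and 2007 and 1569 CPM in wild type mice, and the supplemented mice spanned the range. The log2 folds of Apoe were -0.21 ± 0.26 for deficient against supplemented, -0.65 ± 0.26 for deficient against wild type (edgeR adjusted p = 0.464) and -0.44 ± 0.25 for supplemented against wild type mice (edgeR adjusted p = 0.999). Fabp7 had 326 and 630, 251 and 901, and 1026 and 519 CPM, with log2 folds of -0.23 ± 0.32, -0.61 ± 0.31 and -0.38 ± 0.30 for the same contrasts (edgeR adjusted p = 0.628 and 0.999 for the contrasts with wild type). Whether these folds differ from those in neurons was not tested, and 315 of the 319 cells are themselves counted among the neurons. Leaving out mouse 670 changed the Apoe fold for supplemented against wild type mice to 0.11, and leaving out mouse 671 to -1.42 (edgeR adjusted p = 0.0011). Leaving out mouse 657 changed it for deficient against wild type mice to -1.19 (edgeR adjusted p = 0.00226).

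Of the 5 members tested in glial-marker-rich cells, edgeR, DESeq2 and limma-voom called 0 in each contrast, where edgeR called 0% of 4610 genes between the diets, 0.347% for deficient against wild type and 0.108% for supplemented against wild type mice. One contrast, deficient against wild type, had a member with an unadjusted p under 0.05 (1 of 5, beside 377 of all genes), and the others had 0, beside 201 of all genes between the diets and 233 for supplemented against wild type mice. These values rest on 32 and 37 cells in deficient, 60 and 80 in supplemented and 62 and 48 in wild type mice, with medians of 3416 and 4706, 2604 and 3692, and 4038 and 4730 UMIs per cell. Erythroid markers were high in 2 of these samples, at 1376 CPM in deficient mouse 654 and 1084 CPM in supplemented mouse 670, against 3.71 to 9.29 CPM in the other 4. The 9 Schwann markers were also highest in these 2 samples. They summed to 1517 CPM in mouse 654 and 1746 CPM in mouse 670, against 453 to 683 CPM in the other 4. Mice 654 and 670 had the lowest Apoe and Fabp7 in these cells. The make-up of the glial-marker-rich cells thus differed between mice, and its part in their Apoe and Fabp7 levels was not tested.

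The glial-marker-rich share of cells was 0.808% and 1.33% in deficient, 1.53% and 2.18% in supplemented and 1.86% and 1.44% in wild type mice. Both deficient mice lay below the other 4. An exact two-sided permutation test over mice gave p = 0.333 for deficient against supplemented in this share, the smallest p that 2 against 2 mice allow. Fewer glial cells and less RNA per glial cell cannot be told apart from these sums.

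Of 24 other glial genes that were in no gate, 15 were tested in NP1 neurons and 0 were called in any contrast, with a median log2 fold of -0.44 for deficient against supplemented and 0.51 for supplemented against wild type mice, where all genes had 0.00. Dbi, the acyl-CoA binding protein, had 367 and 322 CPM in deficient, 458 and 438 CPM in supplemented and 368 and 340 CPM in wild type NP1 neurons. Cst3, a secreted protease inhibitor, had 870 and 798, 851 and 862, and 834 and 802 CPM and did not separate the groups. In PEP neurons 2 of the 22 tested were called higher in supplemented against wild type mice, where 0.218% of 10990 genes were called in either direction. They were Id3, a transcriptional inhibitor (log2 fold 0.92 ± 0.18, edgeR adjusted p = 0.0204), and Fxyd1, a sodium pump regulator (log2 fold 1.23 ± 0.24, edgeR adjusted p = 0.0204). The contrast shares the supplemented mice with the choice of the members, and the list was written with earlier results known, so it is not independent. Id3 had 48.2 and 32.8, 80.2 and 70.8, and 45.4 and 31.5 CPM, and Fxyd1 28.6 and 14.3, 44.4 and 36.2, and 20.7 and 12.1 CPM, both highest in the supplemented mice.

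Few genes of the pathways around the members passed the low-count filter in NP1 neurons. Of 20 apolipoprotein and lipoprotein receptor genes, 9 were tested in NP1 neurons and 0 called, with a median log2 fold of -0.14 for deficient against supplemented and 0.16 for supplemented against wild type mice. Sorl1, a sorting receptor that binds Apoe, had 99.1 and 90.1, 87.5 and 91.6, and 103 and 87.1 CPM, and Abca1, which loads lipid onto Apoe, 80.7 and 74.2, 81.3 and 88.9, and 88.4 and 75.4 CPM. Both overlapped between supplemented and wild type mice. Of 12 fatty acid binding genes 2 were tested, and Fabp5, the epidermal-type fatty acid binding protein, had 372 and 432 CPM in deficient, 391 and 422 CPM in supplemented and 416 and 445 CPM in wild type mice, whose ranges overlapped.

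Of 21 Notch pathway genes, 8 were tested in NP1 neurons and 0 called, with median log2 folds of -0.05 for deficient against supplemented and 0.04 for supplemented against wild type mice. Rbpj, the nuclear partner of Notch, had 15.6 and 11.5, 20.8 and 14.7, and 10.1 and 15.5 CPM, and Adam10, which cleaves Notch, 47.2 and 54.1, 52.4 and 54.2, and 59.3 and 49 CPM. Among 11 endothelin and glutamate uptake genes 3 were tested and 0 called. Ece1, which activates endothelin, stood at 19.8 and 17.8, 24.2 and 17.4, and 12.5 and 14.4 CPM. Of 7 relatives of the members, 4 were tested in NP1 neurons and 0 called (median log2 fold 0.04 for deficient against supplemented mice). Gpm6a, the neuronal relative of Gpm6b, had 104 and 105, 83 and 100.4, and 110.4 and 82.4 CPM. Spock2, a matrix proteoglycan related to Sparc, had 194 and 170, 197 and 180.5, and 168 and 190.5 CPM.

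Of the 5 genes whose levels over the 36 values of 6 mice in 6 neuron classes were most like the mean profile of Apoe and Fabp7, 4 were Ncoa7 (Pearson r = 0.86), Prkar2a (0.85), Tnks2 (0.83) and Luc7l2 (0.83), out of 6386 genes with a mean of at least 16 CPM. The r is a description over classes and mice that share libraries and depth. Ncoa7 averaged 738 CPM over these values and Prkar2a 308 CPM. Among the other members r was 0.90 for Gpm6b, 0.82 for Sparc, 0.75 for Ednrb, 0.70 for Notch1, 0.62 for Ttyh1 and 0.39 for Slc1a3, the one least like Apoe and Fabp7.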

How the data were processed

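Unique molecular identifier (UMI) counts per gene and cell were deposited by the authors as 1 unnormalized table of 6 mouse libraries. Per the labels, libraries were 10x Chromium 3' v2, and the submitters' processing notes name Cell Ranger 2.0.1, bcl2fastq 2.17.1.14, Seurat 2.3.0 and limma 3.32.10 with build mm10. From the counts, 27 cells under 500 genes or over 20% mitochondrial UMIs were removed, and 634 called doublets left out, at 0.8% expected per 1000 cells. Neurons were given the class with the largest share of its markers detected, with a minimum of 3 markers (2 for NP2 and TRPM8). This scoring rule was set after the data were seen. The TRPM8 class (35 cells) and 140 neurons tied between classes were counted among all neurons but not described as classes. UMIs were summed per mouse and class, the replicate being the mouse (2 per group). They were tested with edgeR 4.0.16 (quasi-likelihood, TMM, filter on low counts, 1 fit of all 6 mice per class, Benjamini-Hochberg adjustment over all genes of the class, threshold 0.05), with DESeq2 1.42.0 and limma-voom 3.58.1 as alternatives, in R 4.3.3, after a test on simulated data. CPM is UMIs per 1000000 UMIs of the same cells. Counts at 3' ends do not scale with gene length. No p is given for a member's fold between deficient and supplemented mice, or for Apoe and Fabp7 in NP1 neurons in any contrast, since those values chose the list; the counts of calls include them. Promoter windows came from RefSeq and gene positions from GENCODE. Genes named are the 8 members, the 5 genes most like Apoe and Fabp7 in profile, and of each list those past the threshold and up to 2 more with the highest CPM; gate markers were named beside results. The members, lists and classes were chosen with earlier results of these data known. Some genes that this rule names, and results that need them, are not reported here. The alternatives for NP2, NP3, PEP, NF and TH neurons were added after the data were seen.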

Additional observations from a re-analysis of the deposited data

How the results depend on the processing

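No paired analysis was possible because the labels' mouse numbers are not shared between groups. Each group holds 1 female and 1 male, and sex was a term in an alternative instead. Over alternatives other than leaving out a mouse, 308 of 350 member folds kept their direction and side of the threshold, 25 passed it newly, 9 no longer did and 8 reversed. The cause of these changes was not tested. Counts of members called changed as follows. In NP1 neurons, deficient against supplemented, the count was 1 in a fit of only these groups, 0 without neurons carrying a glial marker and 1 with libraries thinned to the smallest sum, against 2. For supplemented against wild type it was 1 without glial-marker neurons, against 2. In NP2 it was 2 between the diets with Leiden clusters, 1 for deficient against wild type without glial-marker neurons, and for supplemented against wild type 1 with no filter, 1 without glial-marker neurons and 2 with Leiden clusters, against 0. In PEP between the diets it was 4 with no filter, 2 with limma-voom, 2 with sex as a term, 1 without glial-marker neurons and 1 with thinning, against 0. In PEP, supplemented against wild type, it was 4 with no filter, 0 with DESeq2, 2 with sex, 3 with only these groups, 0 with doublets kept, 0 under the stricter cell filter (1000 genes, 10% mitochondrial), 4 without glial-marker neurons and 0 with Leiden clusters, against 1. In NF between the diets it was 2 with no filter. In TH, supplemented against wild type, it was 5 with no filter and 1 each with only these groups and without glial-marker neurons. Over all neurons it was 6 with no filter between the diets, and for supplemented against wild type 7 with no filter, 1 with DESeq2 and 2 without glial-marker neurons, against 0.

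Leaving out 1 mouse at a time, counts between the diets ran from 0 to 2 in NP1, 0 to 1 in NP2, 0 to 1 in NP3, 0 to 3 in PEP and 0 to 2 in NF. For supplemented against wild type they ran from 0 to 2 in NP1, 0 to 1 in NP2, 0 to 3 in PEP, 0 to 4 in TH, 0 to 1 over all neurons and 0 to 2 in glial-marker-rich cells. For deficient against wild type they ran from 0 to 1 in TH and 0 to 2 in glial-marker-rich cells. The only reversed fold between the diets, outside leaving out a mouse, was Fabp7 in glial-marker-rich cells with sex as a term (0.034). The others were for deficient against wild type. Without glial-marker neurons Apoe gave 0.25 in NP1, 0.50 in PEP and 0.49 over all neurons, and Fabp7 0.64, 0.11 and 0.26. With Leiden clusters Fabp7 gave 0.27 in NP1. Leave-one-out folds for deficient against wild type ran from -0.34 to 0.10 for Apoe and -0.63 to 0.44 for Fabp7 in PEP, and from -0.23 to 0.12 and -0.46 to 0.37 over all neurons. In glial-marker-rich cells they ran from -0.77 to 0.76 for Apoe and -0.87 to 0.98 for Fabp7 between the diets, and from -1.42 to 0.11 and -1.60 to 0.22 for supplemented against wild type. Glial-marker-rich cells have no alternative with Leiden clusters or glial markers removed, since no glial cluster formed. With 2 mice per group and few UMIs, Ttyh1, Slc1a3 and Notch1 were not testable in most classes.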
